A study of Homo sapiens with 4 samples.

Results

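The FAT, Dachsous and CELSR proteins are giant cadherins, membrane proteins whose outer part is a long string of cadherin repeats. The 9 genes described here are FAT1, FAT2, FAT3, FAT4, DCHS1, CELSR1, CELSR2, CELSR3 and FJX1, out of 20263 genes in the deposited count table. They were chosen by name, with the contrast of 7A against DMSO in these same libraries already known and FAT4 among its largest falls. The fold changes below are therefore a description of these genes and not a test of them. All 9 were found in the table by their Ensembl identifiers, and 8 had enough counts to be fitted; FAT3 had none.

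The study treated HCT116 cells, a line from a human colon carcinoma, with the compound 7A, called a derivative of the ERBB kinase inhibitor neratinib, or with DMSO, its vehicle. After 24 h, mRNA libraries were made and sequenced, 2 for each group, named here DMSO replicates 1 and 2 and 7A replicates 1 and 2. All 4 libraries come from this 1 cell line. The labels give no concentration of 7A and do not say that replicates were separate cultures, so the p-values cover the spread between these libraries alone, and that spread may be technical. In bulk RNA, fewer cells of a type and less RNA per cell cannot be told apart. The series asks what 7A does in these cells, with p53 and apoptosis in its title.

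In Drosophila, Fat and Dachsous on neighbouring cells bind each other through their cadherin repeats, and Four-jointed, a Golgi kinase, phosphorylates those repeats and tunes the binding. Fat signals into the Hippo pathway, which restrains the growth co-activator Yorkie (YAP in mammals), and both proteins orient cells in the plane of the tissue. In mammals FAT4 is the receptor that pairs with DCHS1, and FJX1 is the counterpart of Four-jointed. FAT1 is a widely expressed epithelial family member that is recurrently mutated in carcinomas. CELSR1, CELSR2 and CELSR3 are the counterparts of the Drosophila protein Flamingo: they join their cadherin repeats to an adhesion G-protein-coupled receptor and belong to the core of planar cell polarity.

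The repeats that define these proteins carry a calcium-binding motif with the residues D-x-N-D-N, where x is any residue. In GENCODE 29 coding sequences on GRCh38, exact copies of it numbered 24 in FAT4 (4981 residues), 15 in FAT1 (4590), 14 in FAT2 (4349), 17 in FAT3 (4557) and 11 in DCHS1 (3298). CELSR1 (3014 residues) and CELSR2 (2923) held 6 each, CELSR3 (3312) held 5, and FJX1, a Golgi enzyme of 437 residues encoded by 1 exon, held 0. The first copy that lies within 1 exon, with 15 bases on either side, shows what the fitted cadherins have in common at the level of sequence; the motif codons are in capitals.
FAT1, chr4:186707359-186707403, minus strand: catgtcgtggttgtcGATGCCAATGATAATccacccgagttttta
FAT2, chr5:151566469-151566513, minus strand: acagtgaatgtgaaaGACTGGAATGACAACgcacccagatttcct
FAT4, chr4:125316775-125316819, plus strand: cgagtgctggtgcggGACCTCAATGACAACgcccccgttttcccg
DCHS1, chr11:6640525-6640569, minus strand: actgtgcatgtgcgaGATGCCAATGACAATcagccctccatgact
CELSR1, chr22:46535791-46535835, minus strand: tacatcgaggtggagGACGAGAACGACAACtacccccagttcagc
CELSR2, chr1:109251235-109251279, plus strand: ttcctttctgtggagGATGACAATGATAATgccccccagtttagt
CELSR3, chr3:48660997-48661041, minus strand: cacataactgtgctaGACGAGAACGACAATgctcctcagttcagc
All 7 capital blocks encode the motif, while the flanks and the codons chosen within it differ. The genes are also long. Merged exons covered 16177 bases in FAT1, 14537 in FAT2, 16439 in FAT4, 10765 in DCHS1, 12806 in CELSR1, 12349 in CELSR2, 13873 in CELSR3 and 2450 in FJX1. The GC content of the longest transcript was 46.3% in FAT1, 52.8% in FAT2 and 44.7% in FAT4, and lay between 60.3% and 63.8% in DCHS1, the 3 CELSR genes and FJX1.

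Library totals were 31120459 and 29769568 counts with DMSO and 49924044 and 61605005 with 7A. Levels are counts per 1000000 (CPM) scaled by the trimmed mean of M-values (TMM), and genes with an edgeR adjusted p below 0.05 were called. Of 14026 genes tested, 23.9% were called higher with 7A and 24.6% lower, 48.4% in all. Without DMSO replicate 2 the counts of 3349 higher and 3446 lower became 1925 and 1939, and without 7A replicate 2 the lower count was 2208. The even split rests on the scaling. Higher calls made up 49.3% of all calls under TMM, 40.7% under upper-quartile scaling and 28.3% when libraries were scaled by their totals, and the median log2 fold change of all genes was -0.03, -0.14 and -0.29. As a check of the cell type, the epithelial keratins KRT8 and KRT18 read 1660 and 445 CPM with DMSO, and EPCAM, KRT19 and CDH1 read 237, 1466 and 72.2 CPM. Of the intestinal markers, CDX2 was present at 12.5 CPM with DMSO and 9.88 CPM with 7A, whereas CDX1 had no count, VIL1 and CDH17 had at most 8 counts in any library, and KRT20 had 0 and 8 counts with DMSO and 51 and 49 with 7A. KRT8 and KRT18 were higher with 7A, at 3668 and 945 CPM, as were EPCAM and KRT19, at 354 and 2034 CPM. With KRT20 these make 5 called higher of 7 tested epithelial markers, and 0 were called lower. The summed level of fibroblast markers was 58.1 and 55.1 CPM in the DMSO libraries against 34.1 and 39.0 CPM in the 7A libraries, nearly all of it COL1A1, with COL1A2, DCN and LUM at 0. Endothelial markers summed to at most 1.5 CPM, and leukocyte markers to 38.2 and 32.1 with DMSO and 56.6 and 92.4 with 7A, mostly CD68, with PTPRC at or near 0. The part of these markers in the results was not tested.

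FAT1, FAT2 and FAT4 were lower with 7A by 3.70, 7.98 and 13.8 times, while the log2 fold changes of FJX1, DCHS1 and the CELSR genes lay between -0.38 and 0.55. In the fit across all genes 4 of the 8 tested members were called lower (FAT1, FAT2, FAT4 and CELSR2), against 24.6% of all genes. None was called higher by edgeR, against 23.9% of all genes. That count was also 0 at an unadjusted p under 0.05 and 0 in DESeq2. All fitted members but FJX1 have at least 10000 exon bases. Among the 1589 tested genes of that length, 9.5% were called higher and 45.9% lower. The median log2 fold change of the 8 was -0.19, beside -0.03 for all tested genes. Because the members were chosen with these values known, nothing is read from the counts.

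**Figure D1:**
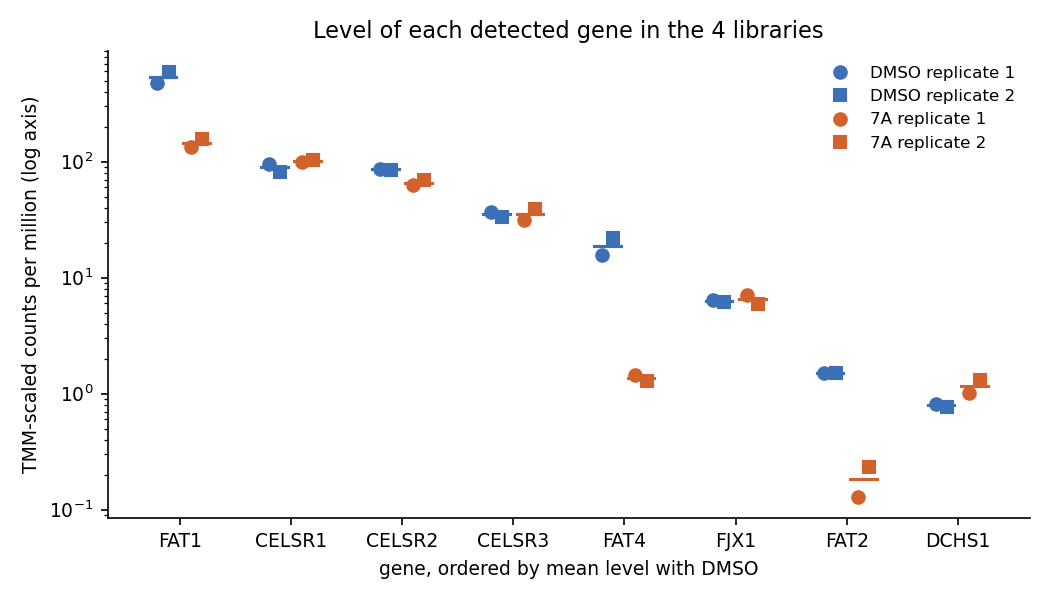
TMM-scaled CPM of the 8 detected genes on a log axis, in order of their mean with DMSO; each point is 1 library and each bar the mean of 2. FAT1, FAT4 and FAT2 drop with 7A well beyond the spread of their libraries, whereas the points of CELSR3 and FJX1 overlap between groups. FAT3 had no count and is not drawn.

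FAT1 had the highest level of the family in all 4 libraries. Its level was 476 and 594 CPM with DMSO and 133 and 156 CPM with 7A. Both 7A libraries lay far below both DMSO libraries. The mean went from 535 ± 83.0 to 145 ± 16.6 CPM (SD, n = 2), a log2 fold change of -1.89 ± 0.16 (SE), or 3.70 times less. Per 1000 bases of merged exon, FAT1 stood at 33.1 CPM with DMSO, higher than 92.4% of all tested genes on that scale. Of all the counts that fell on the 9 genes, FAT1 held 66.1% and 72.0% in the DMSO libraries and 39.6% and 41.4% in the 7A libraries.

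FAT4, the receptor of the Fat and Dachsous pair, had the largest fall of the 8. It gave 534 and 717 counts with DMSO and 67 and 71 with 7A, although the 7A libraries were deeper. These are 15.7 and 21.9 CPM against 1.45 and 1.28 CPM. The lowest DMSO library was above the highest 7A library by more than the gap between replicates in either group. The mean moved from 18.8 ± 4.45 to 1.37 ± 0.12 CPM (SD, n = 2), with a log2 fold change of -3.78 ± 0.25, or 13.8 times less. Of the 14026 tested genes, 62 had a lower fold change than FAT4, 142 a lower one than FAT2 and 653 a lower one than FAT1.

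FAT2, which in mouse is best known from cerebellar granule neurons, was present at a trace. It gave 51 and 49 counts with DMSO and 6 and 13 with 7A, that is 1.5 CPM in both DMSO libraries against 0.13 and 0.24 CPM. The groups did not overlap; the limit that a count of 0 allows was 0.0649 and 0.0543 CPM in 7A replicates 1 and 2. The log2 fold change was -3.0 ± 0.44. FAT2 passed the filter on low counts through its DMSO libraries alone, as neither 7A library reached the cutoff of 0.247 CPM. With its 7A level in all libraries it would not have been fitted. An annotated antisense gene shares 596 bases with its exons, and the sources used here do not say whether counting used strand. FAT3, the other family member, known from neurons of the mouse retina, had 0 counts in all 4 libraries, which allows an expected count of up to 3 per library, or 0.0880 and 0.0918 CPM with DMSO. This limit covers counting error alone at 95% confidence.

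**Figure D2:**
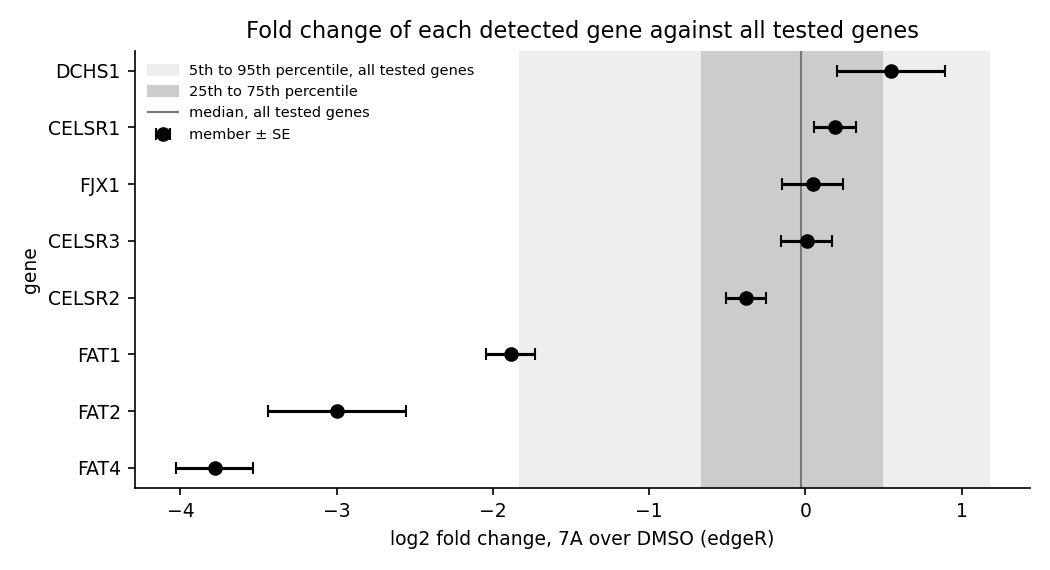
Log2 fold change of 7A over DMSO with its standard error for the 8 fitted genes; dark and light bands hold the middle of all 14026 tested genes, from the 25th to the 75th and from the 5th to the 95th percentile. FAT1, FAT2 and FAT4 lie below the 5th percentile (-1.83), and CELSR1, CELSR2, CELSR3 and FJX1 lie within the dark band, from -0.66 to 0.49.

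DCHS1, the ligand for FAT4, was barely expressed. Its counts were 28 and 25 with DMSO and 47 and 72 with 7A, or 0.821 and 0.765 CPM against 1.02 and 1.30 CPM. Both 7A libraries were above both DMSO libraries, but the log2 fold change of 0.55 ± 0.35 was not called. Antisense genes share 820 and 188 bases with its exons, with the same doubt about strand. Within a library the pair can be compared per length without any scaling between libraries. DCHS1 stood at 8.01% and 5.33% of FAT4 per 1000 exon bases in DMSO replicates 1 and 2, and at 107% and 155% in 7A replicates 1 and 2. Per length, DCHS1 was thus far below its receptor's transcript with DMSO and at or above it with 7A. The genes differ in GC content (62.0% in DCHS1, 44.7% in FAT4), and the part of this in the ratio was not tested. Without division by length, the mean levels with 7A were 1.16 CPM for DCHS1 and 1.37 CPM for FAT4.

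FJX1, the counterpart of the kinase that modifies the repeats, was not called. It read 6.39 and 6.21 CPM with DMSO and 7.07 and 5.96 CPM with 7A. The groups overlapped, and the log2 fold change was 0.05 ± 0.20. The sign flipped with upper-quartile scaling (-0.07), library totals alone (-0.22), the filter of 5 CPM (-0.04), both sequence corrections (-0.19 and -0.35) and without 7A replicate 1 (-0.06), and none of these values was called. Per 1000 exon bases FJX1 stood at 2.57 ± 0.05 CPM with DMSO, next to CELSR3 at 2.54 ± 0.17 (SD, n = 2), and these did not differ beyond their spread.

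All 3 CELSR genes, the planar polarity cadherins, were detected in every library. CELSR1 read 96.2 and 82.2 CPM with DMSO and 98.9 and 104 CPM with 7A. The 7A libraries were a little above the DMSO libraries, the log2 fold change was 0.19 ± 0.14 and was not called; it was -0.08 with library totals alone (not called) and 0.63 with the correction for length, which gave a call. CELSR2 read 87.2 and 85.2 CPM with DMSO and 62.8 and 69.5 CPM with 7A. Both of its 7A libraries were lower, and the log2 fold change of -0.38 ± 0.13 was called. That call was lost in 8 of 14 alternatives, among them those that left out 1 DMSO library (either of them) or 7A replicate 1, and a correction for transcript length turned it to 0.05 (not called). CELSR3 read 36.9 and 33.6 CPM with DMSO and 31.7 and 39.0 CPM with 7A. Its 7A libraries enclosed the DMSO libraries, and the log2 fold change was 0.01 ± 0.16, with a negative sign under upper-quartile scaling (-0.10) and library totals alone (-0.26).

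The order of the family at the transcript level changed with it. With DMSO, per 1000 exon bases, the order was FAT1 (33.1 CPM), CELSR2 (6.98) and CELSR1 (6.96), which did not differ beyond their spread, then FJX1 (2.57) and CELSR3 (2.54), FAT4 (1.14), FAT2 (0.10) and DCHS1 (0.07). With 7A it was FAT1 (8.94), CELSR1 (7.93), CELSR2 (5.36), FJX1 (2.66) and CELSR3 (2.55), DCHS1 (0.11), FAT4 (0.08) and FAT2 (0.01). Some of these places are close beside the SD with 7A (n = 2). It was 1.03 for FAT1 and 0.30 for CELSR1, and 0.019 for DCHS1 and 0.007 for FAT4. FJX1 and CELSR3 did not differ beyond their spread with 7A. Within libraries, FAT1 stood at 3.92 and 5.71 times CELSR1 per length with DMSO and at 1.06 and 1.19 times with 7A. FAT4 also lost ground to FAT1, from 3.24% and 3.64% of it with DMSO to 1.07% and 0.81% with 7A. CELSR2 went from 94.0% and 107% of CELSR1 to 65.9% and 69.1%, and CELSR3 from 35.4% and 37.7% to 29.6% and 34.5%. These ratios do not depend on how libraries are scaled against each other. FAT1 and CELSR1 differ in GC content (46.3% and 61.4%), and the part of this in their ratio was not tested. For CELSR3 over CELSR1 the gap between the groups was smaller than that between the replicates of either group. The other ratios show unequal change and not which of a pair moved.

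Exon length and GC content moved with the fold changes of all genes, and the members differ in both. Across 14011 tested genes with both values, Spearman's rho with the log2 fold change was -0.28 for exon length, -0.27 for genomic span and 0.24 for GC content, as a description in which all genes share the same 4 libraries. The median log2 fold change was 0.38 among genes with under 2000 exon bases and -0.56 among the 1589 with at least 10000. Of those long genes, the 1044 with a GC content under 48%, the class of FAT1 and FAT4, had a median of -0.71, with 52.0% called lower. The 271 between 48% and 54%, the class of FAT2, had a median of -0.43. The 91 with at least 60%, the class of DCHS1 and the CELSR genes, had a median of -0.11, with 24.2% called lower and 19.8% higher. FAT1, FAT2 and FAT4 lay below the medians of their own classes. The lower quartile was -1.26 in the class of FAT1 and FAT4 and -0.97 in that of FAT2. Among all 1589 long genes, of any GC content, 12 had a lower fold change than FAT4, 21 than FAT2 and 128 than FAT1. After a correction of each library for GC and length, the log2 fold change was -3.11 ± 0.19 for FAT4, -2.67 ± 0.39 for FAT2 and -1.28 ± 0.13 for FAT1, and those calls held. CELSR1 was then called higher at 0.36 ± 0.10, and FJX1, which is short, read -0.35 ± 0.20 and was not called. Genomic span was 138940 bases in FAT1, 64852 in FAT2 and 176534 in FAT4. It was 34532 in DCHS1, 25732 in CELSR2, 26447 in CELSR3 and 2450 in FJX1. CELSR1, at 176337 bases, was close to FAT4 in span, with log2 fold changes of 0.19 and -3.78. The members were chosen with these fold changes known, so their places in the classes are a description. The part of exon length, GC content or span in the members' values was not tested.

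**Figure D3:**
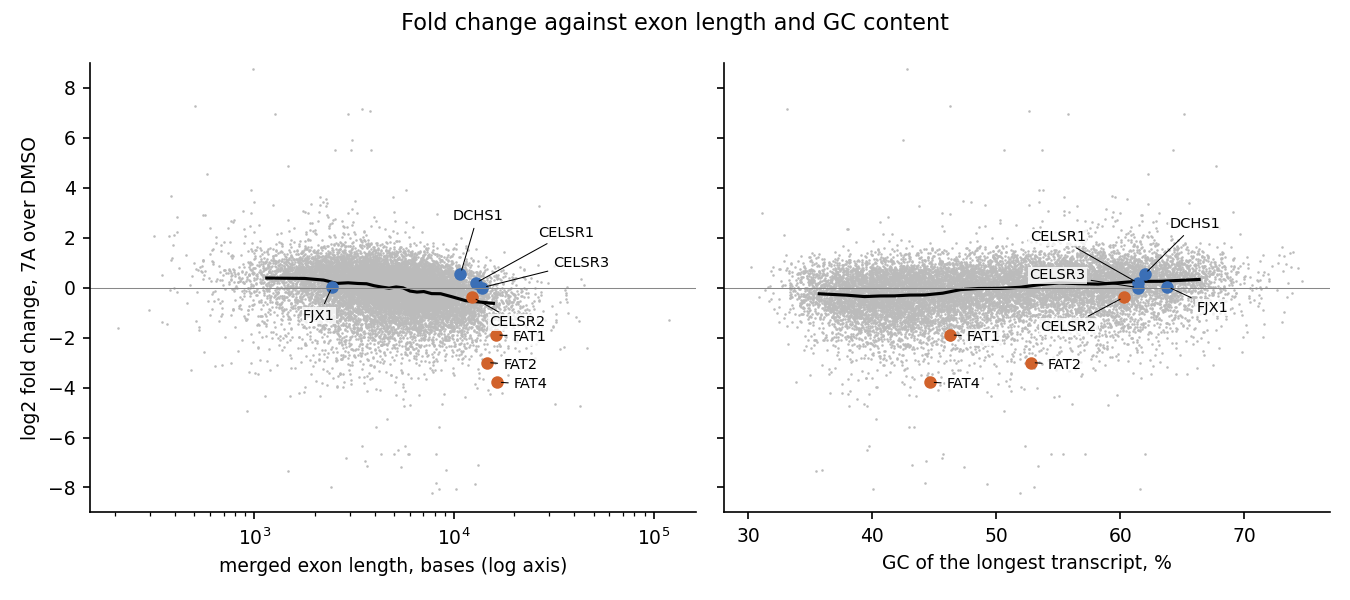
Log2 fold change of 7A over DMSO against merged exon length (left, log axis) and GC content of the longest transcript (right) for all tested genes (grey), with the median in 20 classes of equal size as a line. The 8 fitted genes are marked, orange where called lower and blue where not called; FAT1, FAT2 and FAT4 lie below the line in both panels.

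The genomic windows at the starts of FAT1 and FAT2 were unlike, although both transcripts were lower with 7A. RefSeq promoter windows of 300 bases (GRCh38.p14) were found for FAT1 (with 2 starts), FAT2, CELSR2, CELSR3 and FJX1. The outer FAT1 start and the FAT2 start are shown to let this be seen, with each CG dinucleotide in capitals.
FAT1, chr4:186726647-186726946, minus strand: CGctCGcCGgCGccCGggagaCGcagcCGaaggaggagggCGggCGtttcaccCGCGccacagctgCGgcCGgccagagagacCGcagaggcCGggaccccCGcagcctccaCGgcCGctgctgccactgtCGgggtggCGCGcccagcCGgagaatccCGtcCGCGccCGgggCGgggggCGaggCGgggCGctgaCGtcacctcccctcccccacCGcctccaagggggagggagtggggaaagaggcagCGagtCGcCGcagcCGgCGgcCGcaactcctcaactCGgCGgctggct
FAT2, chr5:151591282-151591581, minus strand: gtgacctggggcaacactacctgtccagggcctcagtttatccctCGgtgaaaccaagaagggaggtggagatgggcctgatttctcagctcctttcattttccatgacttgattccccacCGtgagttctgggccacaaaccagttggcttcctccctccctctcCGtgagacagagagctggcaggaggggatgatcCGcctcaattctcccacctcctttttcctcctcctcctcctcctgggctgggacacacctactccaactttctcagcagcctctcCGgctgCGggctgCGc
The FAT1 window held 40 CG dinucleotides at 77.3% GC and its other start 41, whereas the FAT2 window held 7 at 58.0% GC; the median of 35116 RefSeq windows was 14. CELSR2, CELSR3 and FJX1 held 30, 30 and 31. The core letters of the motif of the YAP partner TEAD, GGAATG, or CATTCC on the other strand, were in none of these 6 windows and in 14% of all windows, which says only that these letters are not there. The FAT2 window lies outside the GENCODE 29 bounds of the gene (chr5:151504093-151568944), and which start HCT116 cells use was not tested.

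Counts in the gene lists that follow stand beside 23.9% of all tested genes called higher and 24.6% called lower. Partners of the FAT proteins were mixed. Of 11 tested, 4 were called higher and 2 lower, with a median of 0.24 (-0.02 with library totals alone). The transcriptional co-repressor ATN1, whose Drosophila counterpart binds Fat, rose by 1.15 ± 0.14 on the log2 scale (120 and 116 CPM to 235 and 291; edgeR adjusted p 0.00121). The actin regulator VASP rose by 0.83 and the scaffold HOMER3 by 0.77, and the polarity scaffold DLG5 rose by 0.36 with an edgeR adjusted p of 0.0459. In 8 alternatives 3 partners were called higher, ATN1, VASP and HOMER3, and the call of DLG5 was lost; these were upper-quartile scaling, library totals alone, the filter of 5 CPM, the replicate block, counts divided by 2, and leaving out either DMSO library or 7A replicate 2. PALS1, an apical polarity scaffold, fell by 1.03 ± 0.17, from 59.7 and 67.6 CPM to 34.9 and 27.3 CPM (edgeR adjusted p 0.00303). EVL, a relative of VASP, fell by 0.59. The lower count was 1 without DMSO replicate 2, without 7A replicate 2 or with either sequence correction, and 4 with library totals alone. DCHS2, the second Dachsous gene, had no counts.

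Among 26 tested genes of planar cell polarity, the pathway of the CELSR proteins, 3 rose and 8 fell, with a median of -0.28. The lower count was 13 with library totals alone (median -0.55) and 5 with the filter of 5 CPM. PRICKLE2 and DAAM2, with at most 23 counts in any library, are among the 8 and passed the filter on low counts through DMSO alone. The cytoplasmic transducer DVL1 rose by 1.76 ± 0.14, from 147 and 126 CPM to 435 and 488 CPM (edgeR adjusted p 0.000556). The scaffold SCRIB rose by 1.11 and the Wnt receptor RYK by 0.76. PRICKLE1, a core polarity protein, fell by 1.62 ± 0.23, from 6.39 and 8.39 CPM to 2.44 and 2.37 CPM (edgeR adjusted p 0.00175), and the formin DAAM1 fell by 1.32. VANGL1 and VANGL2, which act with the CELSR proteins, were not called, at -0.81 ± 0.36 and -0.71 ± 0.40. WNT5A had no counts.

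Hippo pathway genes gave no common direction. Of 29 tested, 5 were called higher and 9 lower, with a median of -0.16, but after the correction for GC and length 9 were higher and 3 lower, with a median of 0.21. The angiomotin AMOT fell by 1.45 ± 0.16, from 26.4 and 29.3 CPM to 10.7 and 9.65 CPM (edgeR adjusted p 0.000981). The kinase genes TAOK2 and TAOK1, which act upstream of the Hippo kinases, had log2 fold changes of -1.18 and -1.43 and were called lower. TEAD2, a DNA-binding partner of YAP, rose by 1.03, and the other 4 called higher were LATS2, NF2, AMOTL2 and TEAD4. TEAD1, which had the highest level of the TEAD genes, fell by 0.73, from a mean of 134 to 81.0 CPM, and was called lower. The other genes called lower were AMOTL1, TAOK3, FRMD6, MOB1B and WWC2. The higher count was 1 without DMSO replicate 2 and 3 with library totals alone. YAP1 itself read 127 ± 0.66 CPM with DMSO and 144 ± 24.3 with 7A (SD, n = 2) and was not called.

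FJX1 also belongs to a published signature of YAP target genes. Of its other 21 genes 18 were tested, and 8 were called higher and 2 lower, with a median of 0.47 (0.20 with library totals alone). The matricellular gene CCN1 rose by 2.57 ± 0.17, from 24.5 and 19.3 CPM to 122 and 138 CPM (edgeR adjusted p 0.000471). The kinase gene NUAK2 rose by 1.58 and the receptor gene AXL by 1.32. CCDC80, a matrix protein gene, fell by 1.77 ± 0.45 from 1.26 and 2.51 CPM (the call was lost when DMSO replicate 2 or either 7A library was left out), and ARHGEF17 fell by 0.57. The lower count was 1 when replicate 2 of either group was left out and 0 when 7A replicate 1 was; it was 1 with either sequence correction, 4 in DESeq2, with upper-quartile scaling and with counts divided by 2, and 5 with library totals alone. FJX1, at 0.05 ± 0.20, was among the signature genes that were not called.

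**Figure D4:**
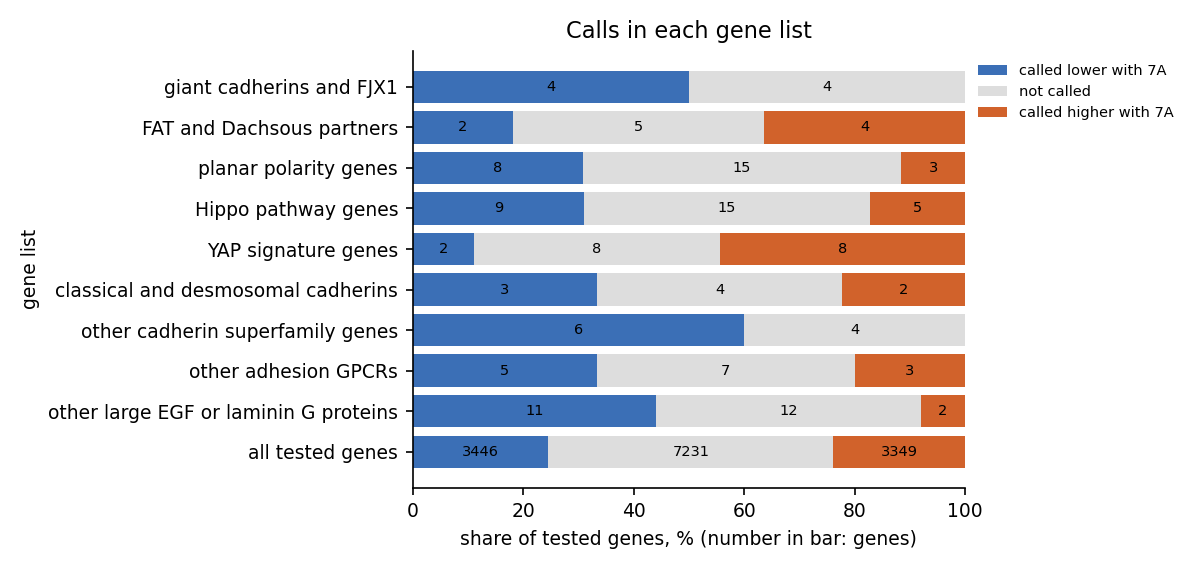
Share of tested genes called lower (blue), not called (grey) and called higher (orange) with 7A in each gene list, with the number of genes in each bar, and in all 14026 tested genes. The giant cadherins and FJX1 and the other cadherin superfamily genes have no gene called higher.

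Other cadherins can be set beside the giants. Of 9 tested classical and desmosomal cadherins 2 were called higher and 3 lower, with a median of -0.12, and both counts were 0 without DMSO replicate 1 or without DMSO replicate 2. The higher count was 1 with upper-quartile scaling and 0 with library totals alone. Without 7A replicate 1 or without 7A replicate 2 the lower count was 1, and without 7A replicate 2 so was the higher count. CDH3 (P-cadherin) rose by 0.47 and the desmosomal DSC3 by 0.67; CDH22 fell by 0.87 and the desmosomal DSG2 fell by 0.50, and CDH15 was the other gene called lower. The epithelial CDH1 (E-cadherin) was not called, at 72.2 ± 6.40 and 61.4 ± 3.74 CPM (SD, n = 2). Of 10 tested protocadherins, cadherin-related genes and calsyntenins, with the receptor gene RET, 0 were called higher by edgeR (0 at an unadjusted p under 0.05 and 0 in DESeq2) and 6 lower, with a median of -0.80. All tested genes gave 23.9% higher and 24.6% lower. The lower count was 3 with the filter of 5 CPM, and the 6 include PCDH19 (57 and 53 counts against 18 and 6) and CDHR2 (27 and 28 against 8 and 17). PCDH19 in 7A replicate 2 and CDHR2 in 7A replicate 1 were under the cutoff of the filter on low counts. Both were thus fitted only because of their DMSO libraries. CDHR5, a brush-border cadherin, fell by 1.73 ± 0.25, from 6.10 and 4.62 CPM to 1.47 and 1.76 CPM (edgeR adjusted p 0.00196). PCDH12 fell by 1.53, PCDH19 fell by 2.75 and RET fell by 0.99. The log2 fold change of PCDH19 was -3.86 without 7A replicate 1 and -2.08 without 7A replicate 2.

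Domain relatives of the members were also examined. Of 15 other tested adhesion G-protein-coupled receptors, the class of the CELSR proteins, 3 were called higher and 5 lower, with a median of -0.16 (0.12 after the correction for length alone). ADGRF1 fell by 1.47 and the giant receptor gene ADGRV1 fell by 2.44 ± 0.32, from 9.15 and 14.8 CPM to 2.64 and 1.77 CPM (edgeR adjusted p 0.00197). ADGRF3 rose by 3.91 from under 1 CPM to 3.68 and 4.92 CPM, having 15 and 4 counts with DMSO. Its log2 fold change was 5.11 without DMSO replicate 1 and 3.29 without DMSO replicate 2. In DMSO replicate 2 ADGRF3 was under the cutoff of the filter on low counts, so it was fitted only because of its 7A libraries. ADGRG1 rose by 0.68; ADGRE5 was the other gene called higher. The higher count was 1 without DMSO replicate 2, and the lower count 3 without DMSO replicate 1. Of 25 other large proteins with EGF-like or laminin G domains, which the FAT and CELSR proteins also carry, 2 were called higher and 11 lower. The median was -0.42 (-0.07 after the correction for length alone). All tested genes gave 23.9% and 24.6%, and those with at least 10000 exon bases gave 9.5% and 45.9%. The tested genes of this list had a median exon length of 10377 bases. The lower count was 6 with the filter of 5 CPM. The 11 include CRB1, which had 10 and 12 counts with DMSO and 2 and 0 with 7A and passed the filter on low counts through DMSO alone. They also include LRP1B, with 44 and 40 counts against 14 and 11. It was under that filter's cutoff in 7A replicate 2, so it too was fitted only because of its DMSO libraries. The fibrillin gene FBN1 fell by 3.02 ± 0.30, from 3.90 and 5.45 CPM to 0.65 and 0.51 CPM (edgeR adjusted p 0.000835), the laminin gene LAMA3 fell by 1.95, NOTCH3 fell by 0.998, while the Wnt co-receptor gene LRP5 rose by 0.98; LRP8 was the other gene called higher.

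The genes nearest to 3 of the members over the 4 libraries were found by the Euclidean distance between centred log2 profiles, among genes of at least 5 CPM in mean. Nearest to FAT4 were PLAG1 (distance 0.52), GPRIN3 (0.56) and ZNF518B (0.66), with log2 fold changes of -3.38, -4.25 and -2.84. Nearest to FAT1 were SCN8A (0.11), the mitochondrial gene MT-ND1 (0.12) and PLEKHH2 (0.18), and nearest to FJX1 were POP1 (0.01), FLVCR1 (0.02) and NES (0.03). A profile of 4 libraries in 2 groups holds little beyond the fold change and the gap between replicates.

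**Figure D5:**
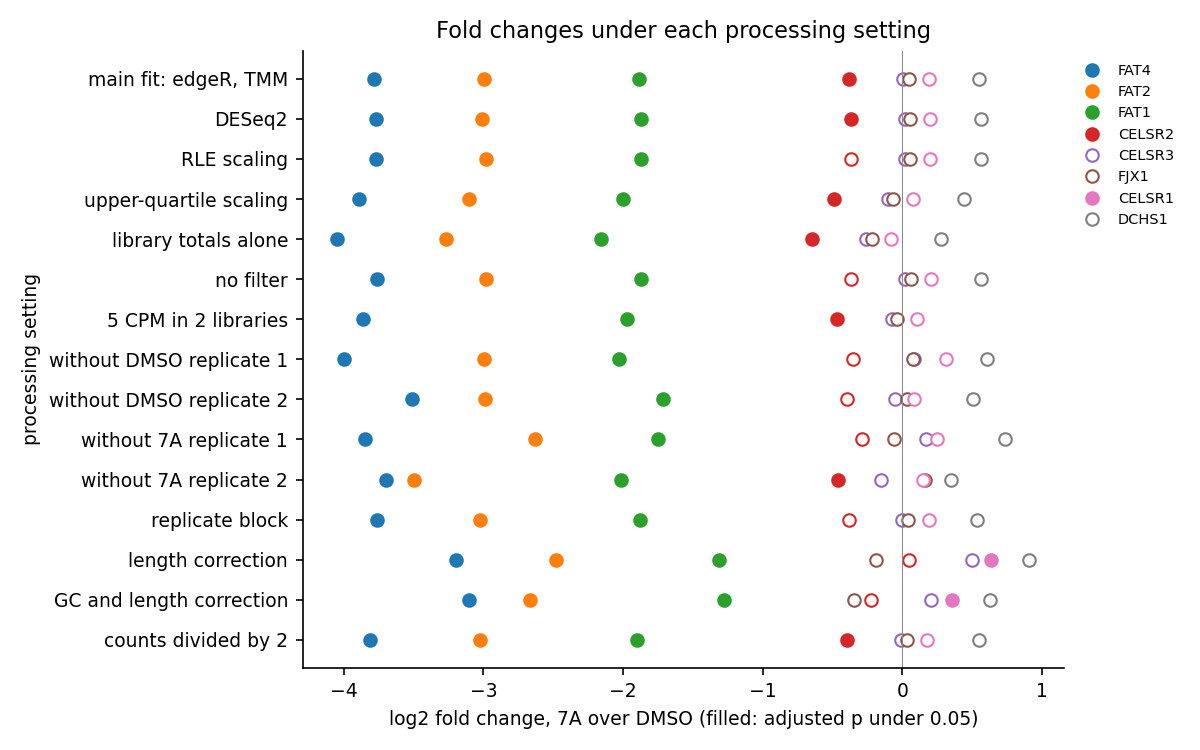
Log2 fold change of 7A over DMSO (horizontal) of the 8 fitted genes under the main fit and each alternative setting (vertical), filled where the adjusted p was under 0.05. FAT4, FAT2 and FAT1 stay between -4.05 and -1.28 and filled in each setting in which they were fitted, while the other genes lie within 1 unit of 0.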

How the data were processed

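The authors deposited 1 table of counts per gene for the 4 libraries; whole numbers with unequal totals show that these are raw counts. Per the labels' protocols, mRNA libraries were built with a dual-mode kit from 1.4 µg of total RNA. The submitters' processing notes name hg38, mm10 and GRCm38 together; all identifiers in the table are human, and the aligner, counter, annotation and use of strand were not given in the sources used here. Of genes with 1 to 20 counts, between 63.9% and 64.9% per library had an even count, so both mates of a read pair may have been counted, and limits based on counts cover counting error alone and take counts as independent.

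Symbols, positions, exon lengths and GC content came from GENCODE 29 (GRCh38), promoter windows from RefSeq. Counts were fitted in edgeR 4.0.16 (R 4.3.3) with filterByExpr (minimum count 10), TMM scaling and the robust quasi-likelihood F test, adjusted by Benjamini-Hochberg over 14026 genes; the standard error is the log2 fold change over the square root of F. The fitting step was checked on simulated counts in which few genes changed, equally in both directions. Far more genes were called in these data, so that check does not bear on the choice of scaling. With 2 libraries per group an exact permutation p cannot go below 0.333, so calls lean on the spread shared across genes.

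The members and all lists were chosen with earlier results of these data known. All 9 members are described; from each other list up to 4 genes with the smallest adjusted p were named, with at least 1 in each called direction. Where 5 or fewer were called in a direction, or a gene has a known tie to the members, further genes were named after their values were seen. The same holds for the Hippo genes called lower. Alternatives were DESeq2 1.42.0, other scalings and filters, a replicate block, leaving out each library, corrections for length and for GC and length (natural splines of 5 degrees of freedom, fitted to log2 CPM at prior count 2) and counts divided by 2. Figures were drawn with matplotlib 3.10.9.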

Additional observations from a re-analysis of the deposited data

How the results depend on the processing

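FAT1, FAT2 and FAT4 kept their direction and their call under each alternative in which they were fitted, with log2 fold changes from -2.16 to -1.28, from -3.50 to -2.48 and from -4.05 to -3.11; FAT2 and DCHS1 did not pass the filter of 5 CPM in 2 libraries. DCHS1 was called in none of 13 alternatives and CELSR3 and FJX1 in none of 14. The member count called higher was 1 with the correction for length and 1 with that for GC and length, CELSR1 being the gene. The CELSR2 adjusted p from edgeR was 0.0458 and ranged from 0.00711 to 0.784 over the edgeR and DESeq2 alternatives.

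Over all genes the count called higher was 1951 with library totals alone. Leaving out each library gave between 1925 and 3054 genes higher and between 1939 and 2619 lower. Signs reversed, without a call, for CELSR1 with library totals alone (-0.0795) and for CELSR2 with the length correction (0.0513). For CELSR3 they did so with upper-quartile scaling (-0.10), library totals alone (-0.26), the filter of 5 CPM (-0.0767) and counts divided by 2 (-0.00744), and when a library was left out its values ran from -0.15 to 0.17. For FJX1 they did so with upper-quartile scaling (-0.0659), library totals alone (-0.22), the filter of 5 CPM (-0.0379), the length correction (-0.19) and the GC and length correction (-0.35), and when a library was left out its values ran from -0.0593 to 0.161. The cause of these changes was not tested. Same-numbered libraries share a number only (correlation of their deviations -0.05); with the replicate number as a block, 3029 genes were higher and 3187 lower, and of the member calls that of CELSR2 was lost. With 2 libraries per group and under 100 counts each, FAT2 and DCHS1 are the least precise of the members.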
